A study of Mus musculus with 19 samples.

Results

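Gene expression in the dorsal hippocampus was compared between control mice exposed to SOR and control mice kept in the homecage. SOR is the abbreviation used for the exposure, and it is spelled out nowhere in the sources used here. The comparison took every control library of the second experiment of the series, 4 after SOR and 4 from the homecage, which is 8 of 19 libraries in all. All 8 came from male C57BL/6J mice of 2 to 4 months that lacked DN, the transgene of the study, whose product blocks Nr4A transcription factors in a dominant-negative way. The groups differed in 1 more respect. SOR replicate 1 was tTA- and SOR replicates 2, 3 and 4 were tTA+, while homecage replicates 1 and 2 were tTA- and homecage replicates 3 and 4 were tTA+. tTA is the tetracycline transactivator, a protein that switches on transgenes placed under a tet promoter, and the promoter that drives tTA itself is not given in the sources used here. The remaining 11 libraries belong to the first experiment, in which every mouse was tTA+ and had been exposed to SOR.

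The study is titled for endoplasmic reticulum (ER) chaperones and the consolidation of long-term memory, and the comparison asks which transcripts differed with the exposure in mice without DN. The ER is where membrane and secreted proteins are folded, and its chaperones, led by the Hsp70 protein BiP (gene Hspa5), hold new chains until they are folded. When unfolded protein accumulates, the sensors ATF6, IRE1 and PERK start the unfolded protein response, in which ATF6 and spliced XBP1 bind ER stress elements in chaperone promoters. A separate and faster response in neurons is the induction of immediate early genes such as Fos, Egr1, Arc and the Nr4a family by synaptic activity. Handling and new surroundings also release corticosterone in mice, and the glucocorticoid receptor then induces its own set of target genes in neurons, glia and vessels.

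Libraries held 22258159 to 48377211 counts after SOR and 29271465 to 66991576 counts in the homecage. SOR replicate 3 stood apart: it was the smallest library, had 27815 genes detected against 30165 to 32495 in the other 7, and lay at 51.2 on the first principal component (51% of the variance) where the others lay between -22 and 0.231. Calls and counts at an unadjusted p under 0.05 were therefore also made without it for the comparison as a whole and for the gene lists. Each group had the transcripts of hippocampal neurons: the sums over pan-neuronal, dentate granule cell, CA1 and CA2 or CA3 markers overlapped between groups. Dentate granule cell markers split by genotype, with sums of 800.8 to 881.8 CPM in the 3 tTA- libraries and 470.0 to 634.6 CPM in the 5 tTA+ libraries. In tissue RNA, fewer cells of a type and less RNA per cell cannot be told apart. The labels do not say whether each library came from a separate animal, so p-values measure the spread between these libraries.

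Of 22305 genes tested, 11 rose after SOR at an edgeR adjusted p under 0.05 (0.0493% of genes tested) and 0 fell (0% of genes tested). At an unadjusted p under 0.05, 646 genes were higher (2.9%) and 695 lower (3.12%), and the smallest adjusted p of a lower gene was 0.201. The median log2 fold change over all genes was 0.007, and 51.5% of genes were above 0. With upper quartile scaling 43.6% were above 0, and the split at an unadjusted p under 0.05 was 461 higher and 850 lower. The 4 SOR and 4 homecage libraries did not overlap in 682 genes on the higher side (3.06%) and in 591 on the lower side (2.65%). Without SOR replicate 3 the test called 32 genes, all higher, the 11 among them. At an unadjusted p under 0.05 that fit had 893 genes higher and 1024 lower of 22305. List counts without this library are to be read against those. Leaving out 1 of the other 7 libraries left 1 to 5 calls: 5 without SOR replicate 2, 2 without SOR replicate 4, and 1, Plin4, without SOR replicate 1 or any homecage replicate. In each of these 8 fits all 11 genes were higher with an unadjusted p under 0.05, in libraries that were among those used to choose them. Without the tTA genotype in the model 20 genes were called, 10 of the 11 among them, and DESeq2 called 81 higher and 6 lower.

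The 11 genes that rose included the glucocorticoid-induced genes Plin4 and Tsc22d3, the ER genes Xbp1, Manf and P4ha1, the heat shock gene Hspa1b and the activity-regulated gene Arc. The others were Xdh, Adipor2, Smim3 and Gm19439. In all 11 the lowest SOR library lay above the highest homecage library.

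**Figure D1:**
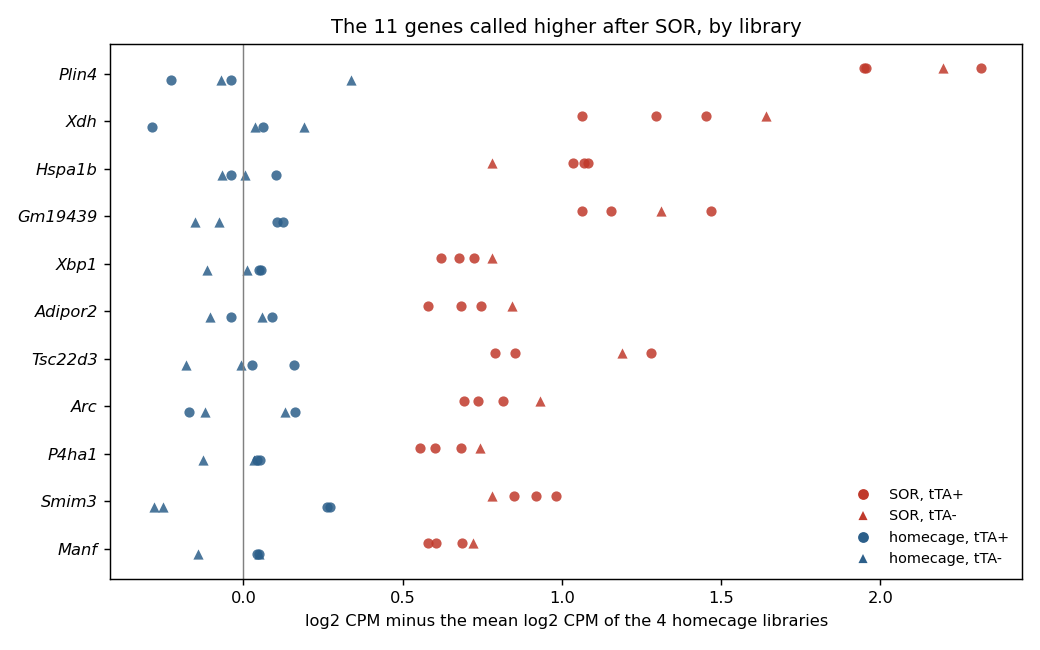
Level of the 11 called genes in each library, as log2 CPM minus the mean log2 CPM of the 4 homecage libraries (x axis), with 1 row per gene, red for SOR, blue for homecage, circles for tTA+ and triangles for tTA- mice. In every row the 4 SOR libraries lie to the right of the 4 homecage libraries, farthest for Plin4 (log2 fold change 2.15).

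Plin4 (ENSMUSG00000002831.13, chr17:56100591-56109803 on GRCm38, minus strand) encodes perilipin 4, a coat protein of lipid droplets. It reached 21.63, 23.51, 18.21 and 18.32 CPM in SOR replicates 1 to 4, against 4.49, 5.97, 4.03 and 4.60 CPM for homecage replicates 1 to 4. Every SOR library was above every homecage library, and the gap between the groups was wider than the spread within either. The model gave a 4.45-fold rise (log2 fold change 2.15, SE 0.144, edgeR adjusted p = 6.56e-04), the largest of the 11. Tsc22d3 (ENSMUSG00000031431.13, chrX:140539528-140600659, minus strand) encodes GILZ, a leucine zipper protein that mediates anti-inflammatory actions of glucocorticoids. It was at 154, 122, 164 and 117 CPM after SOR, against 67.1, 59.5, 68.8 and 75.3 CPM in homecage mice. The SOR libraries spread more widely than the homecage libraries, and the gene rose 2.05-fold (log2 fold change 1.03, SE 0.131, edgeR adjusted p = 0.0378).

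Xbp1 (ENSMUSG00000020484.18, chr11:5520659-5525893, plus strand) encodes the transcription factor that IRE1 activates by splicing its mRNA. Its counts do not separate the spliced from the unspliced form. It was at 140.0, 125.4, 134.7 and 130.3 CPM after SOR, against 82.2, 75.2, 84.7 and 84.3 CPM in homecage mice, so both groups were tight. It rose 1.62-fold (log2 fold change 0.70, SE 0.0823, edgeR adjusted p = 0.0282). Manf (ENSMUSG00000032575.16, chr9:106838312-106891979, minus strand) encodes an ER-resident, secreted protein with neurotrophic activity that is induced in ER stress. It was at 59.2, 57.7, 53.6 and 54.5 CPM after SOR, against 37.1, 32.5, 37.0 and 37.1 CPM in homecage mice, a 1.56-fold rise (SE 0.0875 on the log2 scale, edgeR adjusted p = 0.044). P4ha1 (ENSMUSG00000019916.14, chr10:59323296-59373304, plus strand) encodes the catalytic subunit of the ER enzyme that hydroxylates proline in collagen. It was at 140.5, 127.4, 135.0 and 123.4 CPM after SOR, against 86.1, 76.9, 86.6 and 87.1 CPM in homecage mice, and also rose 1.56-fold (edgeR adjusted p = 0.041). The 3 genes rose by similar amounts, with log2 fold changes of 0.65 to 0.70.

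Hspa1b (ENSMUSG00000090877.3, chr17:34956436-34959238, minus strand), a stress-inducible cytosolic Hsp70, was at 15.9, 19.6, 18.9 and 19.4 CPM after SOR, against 8.81, 9.26, 8.99 and 9.91 CPM in homecage mice. It rose 1.94-fold (log2 fold change 0.95, SE 0.101, edgeR adjusted p = 0.0179). Hspa1a is a near-identical copy beside it, so how reads were divided between the 2 genes is uncertain. Arc (ENSMUSG00000022602.14, chr15:74669083-74672570, minus strand) encodes a dendritic protein that removes AMPA receptors from synapses and whose mRNA is induced by activity. It was at 143.2, 121.3, 132.1 and 125.2 CPM after SOR, against 82.1, 69.1, 66.7 and 84.0 CPM in homecage mice. That is a 1.75-fold rise (log2 fold change 0.81, SE 0.104, edgeR adjusted p = 0.0378), and the lowest SOR library was well above the highest homecage library.

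Xdh (ENSMUSG00000024066.8, chr17:73883895-73950196, minus strand) encodes xanthine dehydrogenase, which makes uric acid in purine breakdown. It was at 11.2, 8.82, 9.84 and 7.52 CPM after SOR, against 3.69, 4.10, 2.94 and 3.75 CPM in homecage mice, a 2.7-fold rise (log2 fold change 1.43, SE 0.148, edgeR adjusted p = 0.0179). Adipor2 (ENSMUSG00000030168.13, chr6:119353150-119417704, minus strand), a receptor for adiponectin, was at 126.1, 117.9, 104.9 and 112.9 CPM after SOR, against 65.3, 73.1, 68.3 and 74.7 CPM in homecage mice, a 1.65-fold rise (edgeR adjusted p = 0.0368). Both genes were tighter within groups than between them. Smim3, which encodes a small membrane protein, was at 22.4, 25.8, 24.6 and 23.5 CPM after SOR. In the homecage it was at 10.9 and 10.7 CPM in the tTA- libraries and at 15.6 and 15.7 CPM in the tTA+ libraries, so the homecage libraries fell into 2 pairs by genotype. Its 1.73-fold rise (edgeR adjusted p = 0.041) was larger than that split, but without tTA in the model it was the 1 gene of the 11 not called (adjusted p = 0.0595). Gm19439 (ENSMUSG00000105843.1, chr3:88030878-88033150, plus strand) is annotated only as a transcript to be experimentally tested (TEC) and does not lie inside a protein-coding gene. It was at 9.40, 7.91, 8.42 and 10.5 CPM after SOR, against 3.59, 3.40, 4.07 and 4.13 CPM in homecage mice, a 2.35-fold rise (edgeR adjusted p = 0.0282).

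Beyond single genes, 56 gene lists were described by how many members passed an unadjusted p under 0.05 in each direction, set against the 2.9% higher and 3.12% lower over all genes. Lists of glucocorticoid-induced genes, ER chaperones, heat shock proteins, immediate early transcription factors and their effectors had 7 to 20 members each on the higher side at that p. The levels of these 5 lists were above 0 in every SOR library and below 0 in every homecage library, where 0 is the mean of all 8. The same held for ER-associated degradation (0.037 to 0.0782 after SOR, -0.109 to -0.0196 in the homecage), inhibitors of MAP kinase signalling (0.0394 to 0.191, -0.154 to -0.0381) and lipid droplet genes (0.00552 to 0.127, -0.148 to -0.0629). SOR replicate 4 had the lowest glucocorticoid list level of the SOR libraries (0.165) and the lowest for immediate early transcription factors (0.0196). SOR replicate 3 had the highest ER chaperone level (0.323). Levels of ribosomal proteins, GABA receptors and cilium genes overlapped between groups.

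**Figure D2:**
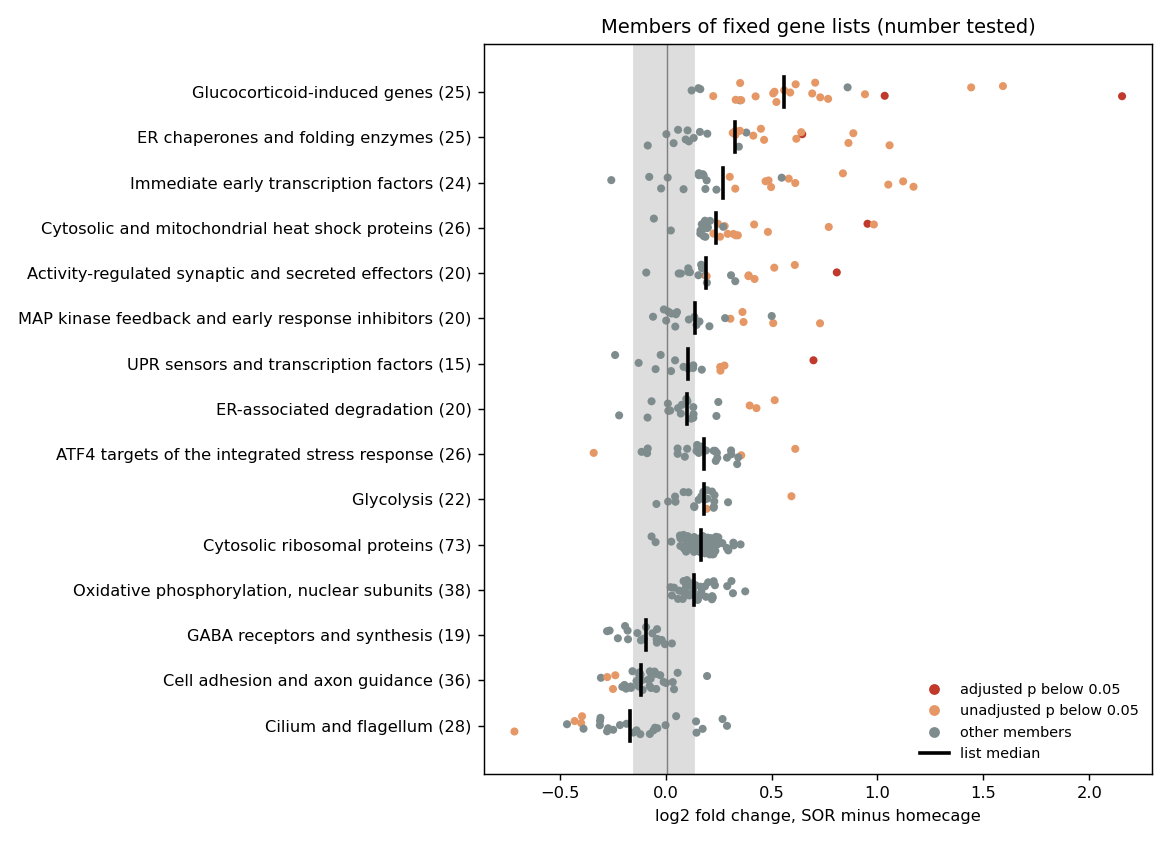
Log2 fold change of SOR against homecage (x axis) for every tested member of 15 gene lists (rows, with the number tested). Red points are called genes, orange points have an unadjusted p under 0.05, grey points are the other members, black bars are list medians and the grey band runs from the lower to the upper quartile of all genes tested. The medians of the glucocorticoid (0.56), ER chaperone (0.33) and immediate early (0.27) lists lie to the right of the band.

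**Figure D3:**
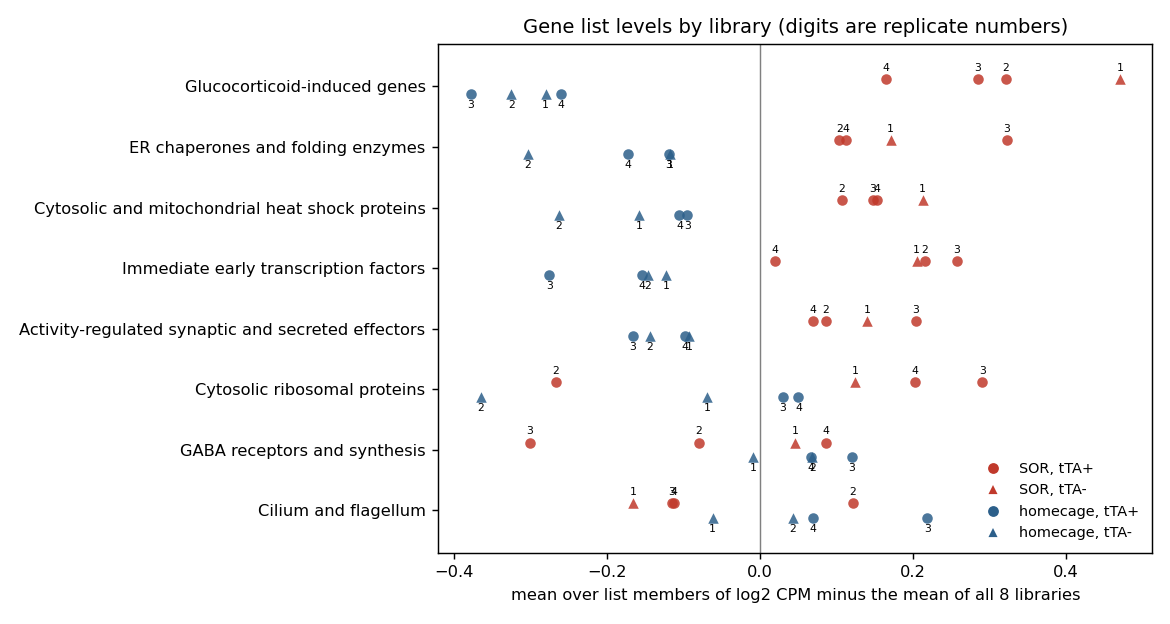
Level of 8 gene lists in each library, as the mean over members of log2 CPM centred on the 8 libraries (x axis). Red is SOR, blue is homecage, circles are tTA+, triangles are tTA- and digits are replicate numbers. The groups are apart in the top 5 rows and overlap in the lower 3.

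Many ER chaperones and folding enzymes were higher after SOR. Of 25 members tested 1 was called, Manf, 13 had an unadjusted p under 0.05 and were higher, 0 were lower at that p, and 24 had a log2 fold change above 0. The groups did not overlap in 13. The list median was 0.33 and it was 0.213 without SOR replicate 3, where 14 members were higher at that p and 5 were called. The study is titled for ER chaperones, so the direction of the list is not independent evidence. Hspa5, which encodes BiP, was at 664.2, 605.3, 809.9 and 573.2 CPM after SOR, against 400.1, 317.8, 386.6 and 349.1 CPM in homecage mice. SOR replicate 3 was the highest library, yet the lowest SOR library was still above every homecage library. The log2 fold change of Hspa5 was 0.86 (SE 0.128, edgeR adjusted p = 0.0632), and without SOR replicate 3 it was 0.75 with an adjusted p of 0.0071. Sdf2l1, which encodes a partner that keeps BiP with its clients, was at 24.0, 21.0, 28.3 and 18.6 CPM after SOR, against 12.3, 9.37, 11.8 and 10.6 CPM in homecage mice. Its log2 fold change was 1.06 (SE 0.152, edgeR adjusted p = 0.0594). Dnajc3, which encodes the co-chaperone p58IPK, was at 155, 164, 153 and 157 CPM after SOR, against 116, 111, 118 and 113 CPM in homecage mice. Its groups were the tightest of these genes, with a log2 fold change of 0.45 (SE 0.0746, edgeR adjusted p = 0.12). Canx, the membrane lectin calnexin and the most abundant member, had a log2 fold change of 0.13 and overlapping groups.

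The promoters of these genes were searched for the ER stress element, written as CCAAT, any 9 bases and CCACG on either strand, from 250 bases before to 50 after each RefSeq start (GRCm38.p6). The element stood in 37 of 27025 genes with a promoter in the table (0.137%). Of the 25 ER chaperones tested, 20 had a promoter there and 7 held the element: 6 of the 10 higher at an unadjusted p under 0.05 and 1, Canx, of the other 10. The 6 matches and that of Derl3, a factor of ER-associated degradation, are shown because they are the letters these genes share; capitals mark the match, with 15 bases on either side.
Hspa5: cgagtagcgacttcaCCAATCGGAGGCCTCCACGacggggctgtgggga
Dnajc3: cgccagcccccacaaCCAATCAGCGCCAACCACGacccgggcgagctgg
Pdia6: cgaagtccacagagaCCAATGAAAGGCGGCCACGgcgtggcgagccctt
Hsp90b1: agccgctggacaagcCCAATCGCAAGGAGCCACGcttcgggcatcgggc
Calr: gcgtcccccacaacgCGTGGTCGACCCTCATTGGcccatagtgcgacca
Creld2: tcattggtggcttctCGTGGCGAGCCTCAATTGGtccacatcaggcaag
Derl3: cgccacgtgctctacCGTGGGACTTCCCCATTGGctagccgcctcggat
Each is written 5′ to 3′ on the strand of its gene. Hspa5 (chr2:34772010-34772058, plus strand), Dnajc3 (chr14:118937812-118937860, plus), Pdia6 (chr12:17266476-17266524, plus) and Hsp90b1 (chr10:86705623-86705671, minus) carry the match in the direction of transcription. Calr (chr8:84847060-84847108, minus), Creld2 (chr15:88819505-88819553, plus) and Derl3 (chr10:75893227-75893275, plus) carry its reverse complement. The matches begin at positions -65, -105, -98, -212, -162, -126 and -156 from the RefSeq start, in the order in which the sequences are listed. Hsp90b1 held 2 matches, of which 1 is shown, and the windows of Xbp1, Sdf2l1, Pdia4 and Herpud1 held no match to these letters. The 5 genes other than Hspa5 and Dnajc3 were chosen for their promoters after their values were seen.

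Over all genes, 22 tested genes had the element in their promoter window. At an unadjusted p under 0.05, 7 of the 22 were higher (31.8%) and 0 lower, against 3.6% higher among the 13236 tested genes with any promoter in the table. In these 7 the groups did not overlap. They were Hspa5, Dnajc3, Pdia6 (a protein disulphide isomerase), Calr (the lectin calreticulin), Creld2 (an ER stress-induced disulphide isomerase), Hsp90b1 (the ER Hsp90) and Derl3. The median of the 22 was 0.117, with 13 above 0 and the rest below. The other 15 had overlapping groups. Among them were the folding gene Canx at 0.13, the adenylyl cyclase gene Adcy3 at 0.09, Calr4 at -0.40 and Xlr3a at -0.60. Without SOR replicate 3, 6 of the 22 were higher at that p, against 658 of the 13236 with any promoter. The element is a match of letters, and no binding was measured.

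**Figure D4:**
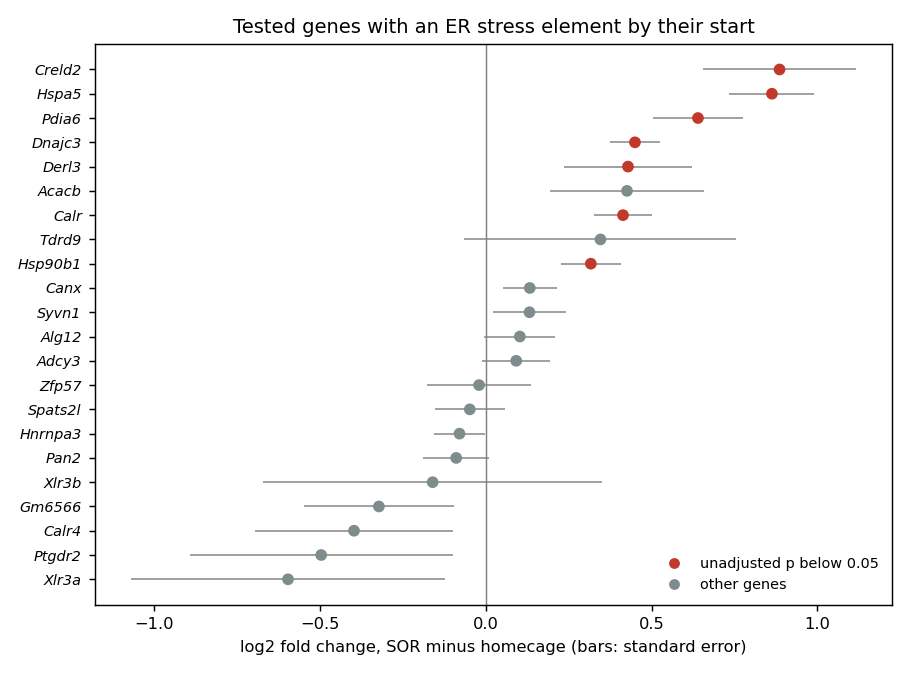
Log2 fold change of SOR against homecage (x axis, bars are standard errors) of the 22 tested genes with an ER stress element in the promoter window, 1 row per gene in order of the change. The 7 red genes, with an unadjusted p under 0.05, run from 0.32 (Hsp90b1) to 0.89 (Creld2), and no gene on the lower side reached that p.

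Among 15 sensors and transcription factors of the unfolded protein response, Xbp1 rose, 4 were higher at an unadjusted p under 0.05 with Xbp1 among them, and 0 were lower (median 0.107). The median was 0.046 without SOR replicate 3, with 3 higher at that p. Atf4, the effector of PERK, had a log2 fold change of 0.28 (SE 0.106, unadjusted p = 0.0251 by edgeR), and the sensor gene Atf6 had 0.05 (SE 0.088) with overlapping groups. Of 26 ATF4 targets of the integrated stress response, 2 were higher (Ddit4, an inhibitor of mTOR signalling, and the transcription factor gene Atf3) and 1 lower (the cystine transporter gene Slc7a11) at an unadjusted p under 0.05. The median was 0.18, and 0.093 without SOR replicate 3. ER-associated degradation, which returns misfolded proteins to the cytosol, had 3 of 20 members higher at that p: Herpud1, Ube2g2 and Derl3. Herpud1, an ER stress-induced scaffold of the degradation complex, was at 79.9, 72.6, 72.0 and 68.3 CPM after SOR, against 47.8, 47.7, 53.8 and 54.8 CPM in homecage mice. Its groups did not overlap and its log2 fold change was 0.52 (SE 0.0917, edgeR adjusted p = 0.154). Translocation into the ER and N-glycosylation had 3 of 30 members higher at that p, and transport by COPII vesicles 1 of 24. None of these 3 lists had a lower member at that p, at which 2.9% of all genes were higher and 3.12% lower. The COPII list was near the share of all genes. At 3.12%, lists of 20 to 30 genes would hold few lower members in any case.

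Glucocorticoid-induced genes had the largest share of members on the higher side of the 56 lists. The list was written with earlier results of these data known, so this rank is not independent evidence. Of 25 tested, 2 were called (Plin4 and Tsc22d3), 20 were higher at an unadjusted p under 0.05, 0 were lower, and the groups did not overlap in 20. All 25 had a log2 fold change above 0, from 0.12 to 2.15, with a median of 0.56, and without SOR replicate 3 the median was 0.532 and 21 were higher at that p. Cdkn1a, which encodes the cell cycle inhibitor p21, was at 5.95, 4.04, 6.10 and 3.31 CPM after SOR, against 2.04, 1.42, 1.55 and 1.63 CPM in homecage mice. It had a log2 fold change of 1.59 (SE 0.23) and an edgeR adjusted p of 0.0594, which was 0.0141 without SOR replicate 3. Gjb6, which encodes connexin 30 of astrocyte gap junctions, was at 80.9, 61.4, 79.3 and 62.0 CPM after SOR, against 39.3, 37.2, 44.7 and 45.0 CPM in homecage mice, with a log2 fold change of 0.77 (SE 0.125, edgeR adjusted p = 0.106). Both genes had their highest values in SOR replicates 1 and 3. Most abundant was Tsc22d1, a relative of Tsc22d3, with a log2 fold change of 0.23. Fkbp5, the co-chaperone that dampens the glucocorticoid receptor, had a log2 fold change of 0.59 (SE 0.131, edgeR adjusted p = 0.372), and Sgk1, a kinase acting on ion transport, had 0.52 (SE 0.12, edgeR adjusted p = 0.396).

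The glucocorticoid response element was searched as G, any base, ACA, any 3 bases, TGT, any base and C, which is the same on both strands in its fixed bases. It stood in the promoter window of 0.537% of genes with a promoter, and in 3 of the 21 glucocorticoid-induced genes that had one. These 3 are shown with the match in capitals and 15 bases on either side.
Map3k6: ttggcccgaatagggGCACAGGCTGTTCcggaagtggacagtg
Mt1: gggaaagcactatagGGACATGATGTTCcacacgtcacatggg
Sgk1: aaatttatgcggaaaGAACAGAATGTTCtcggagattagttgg
They lie at chr4:133240622-133240664 (plus strand) for Map3k6, a MAP kinase kinase kinase, at chr8:94178980-94179022 (plus) for Mt1, a metallothionein that binds zinc, and at chr10:21993687-21993729 (plus) for Sgk1. The matches begin at -181, -94 and -188 from the start. All 3 genes were higher at an unadjusted p under 0.05, with log2 fold changes of 0.94 (SE 0.164) for Map3k6, 0.56 (SE 0.122) for Mt1 and 0.52 (SE 0.12) for Sgk1. Map3k6 and Mt1 were named here for their promoters after their values were seen. Of all 59 tested genes with the element, 7 were higher (11.9%) and 1 lower at that p, against 3.6% higher among genes with any promoter. The promoters of Plin4 and Tsc22d3 in the table held no match to these letters.

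Cytosolic and mitochondrial heat shock proteins, which fold proteins outside the ER, had 1 called member of 26 (Hspa1b), 13 members higher at an unadjusted p under 0.05 and 0 lower. The median was 0.236, 25 members were above 0, and the groups did not overlap in 8. Hspa1a was at 9.32, 9.70, 8.09 and 9.54 CPM after SOR, against 4.93, 5.57, 4.98 and 5.98 CPM in homecage mice, with a log2 fold change of 0.77 (SE 0.13, edgeR adjusted p = 0.125). Hspb1, a small heat shock protein, was at 8.88, 8.34, 7.66 and 7.52 CPM after SOR, against 4.56, 2.75, 4.94 and 3.99 CPM in homecage mice, with a log2 fold change of 0.98 (SE 0.185, edgeR adjusted p = 0.201). The inducible members Hspa1b, Hspa1a and Hspb1 thus had the largest differences of the list and low levels. The most abundant member, the constitutive Hsc70 gene Hspa8, had a log2 fold change of 0.28 (SE 0.115) and overlapping groups. The heat shock element (GAA, 2 bases, TTC, 2 bases, GAA, or its complement) stood in 4 of the 20 members with a promoter, against 0.662% of all genes with one: 2 of the 10 higher at an unadjusted p under 0.05 and 2 of the other 10.

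Immediate early transcription factors had no called member of 24 by edgeR, while 11 were higher at an unadjusted p under 0.05 and 0 lower. DESeq2 called Fos, Fosb, Egr2 and Egr1 among those named here. The list median was 0.272 and the groups did not overlap in 8. Fos, the first member of the AP-1 family to be induced, was at 9.01, 8.69, 9.27 and 10.7 CPM after SOR, against 4.02, 2.82, 4.42 and 5.38 CPM in homecage mice. Its log2 fold change was 1.12 (SE 0.166, edgeR adjusted p = 0.0632), and without SOR replicate 3 it was 1.14 with an adjusted p of 0.0172. Fosb was at 3.93, 4.04, 4.26 and 3.37 CPM after SOR, against 1.98, 2.47, 1.67 and 1.74 CPM in homecage mice, with a log2 fold change of 1.05 (SE 0.179, edgeR adjusted p = 0.125). Egr1 was at 24.0, 36.8, 27.3 and 31.6 CPM after SOR, against 18.5, 20.2, 18.8 and 19.8 CPM in homecage mice, with a log2 fold change of 0.58 (SE 0.128, edgeR adjusted p = 0.347). The SOR libraries were above the homecage libraries in all 3 genes, most closely in Egr1.

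Members of the list were unequal. Npas4, an early gene that responds to calcium entry, had a log2 fold change of -0.26 (SE 0.252), Jun had 0.01 (SE 0.104), and both had overlapping groups. Of the Nr4a receptors, the family that DN acts on, Nr4a1 was at 28.3, 27.7, 22.05 and 22.03 CPM after SOR, against 19.04, 19.8, 15.4 and 19.6 CPM in homecage mice. With tTA genotype in the model its log2 fold change was 0.49 (SE 0.119, edgeR adjusted p = 0.457, unadjusted p = 0.00209). Nr4a2 had 0.16 (SE 0.11) and Nr4a3 had -0.08 (SE 0.133), with edgeR adjusted p of 0.83 and 0.909 and overlapping groups. Nr4a1 was thus the one Nr4a gene whose libraries did not overlap, and none of the 3 was called.

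Effectors of activity at the synapse or outside the cell had 1 called member of 20 (Arc), 7 higher at an unadjusted p under 0.05 and 0 lower, with a median of 0.191. Homer1, a scaffold under glutamate receptors with an activity-induced short form that gene counts do not separate, was at 340.6, 317.8, 279.1 and 313.1 CPM after SOR, against 222.9, 237.8, 236.9 and 243.0 CPM in homecage mice. The groups did not overlap and the log2 fold change was 0.42 (SE 0.0861, edgeR adjusted p = 0.265). Bdnf, the neurotrophin, had 0.20 (SE 0.0998) with overlapping groups. Inhibitors that MAP kinase signalling induces against itself had 5 of 20 members higher at that p and 0 lower, with a median of 0.141. One of them, the phosphatase gene Dusp5, was at 21.3, 18.1, 20.2 and 15.7 CPM after SOR, against 12.8, 12.6, 8.79 and 13.1 CPM in homecage mice, with a log2 fold change of 0.73 (SE 0.142, edgeR adjusted p = 0.22).

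The cAMP response element that CREB binds was searched as TGACG followed directly by TCA, on either strand. It stood in 2.03% of genes with a promoter and in 4 of the 14 effectors that had one: Arl4d, Pcsk1, Plk2 and Scg2. The first 3 were higher at an unadjusted p under 0.05 and their matches are shown, with the element in capitals.
Arl4d: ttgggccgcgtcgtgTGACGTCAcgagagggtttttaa
Pcsk1: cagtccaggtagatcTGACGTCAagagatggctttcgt
Plk2: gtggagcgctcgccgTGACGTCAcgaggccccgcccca
They lie at chr11:101665500-101665537 for Arl4d, a small GTPase of the ARF family, at chr13:75089764-75089801 for Pcsk1, a protease that matures neuropeptides, and at chr13:110394967-110395004 for Plk2, a kinase that weakens overactive synapses, all on the plus strand. The log2 fold changes were 0.51 (SE 0.121) for Arl4d, 0.39 (SE 0.156) for Pcsk1 and 0.19 (SE 0.0804) for Plk2. Pcsk1 was named for its promoter after its values were seen. Of the 423 tested genes with the element, 17 were higher (4.02%) and 6 lower at that p, against 3.6% higher among genes with any promoter. The whole set of genes with this element was thus near the background, unlike the 22 with the ER stress element; the difference between these shares was not tested.

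Energy and lipid genes held single members that were higher. Slc2a1, the glucose transporter of vessels and astrocytes, was at 75.8, 64.5, 67.6 and 59.8 CPM after SOR, against 45.5, 42.6, 45.4 and 45.8 CPM in homecage mice. Its log2 fold change was 0.59 (SE 0.0918, edgeR adjusted p = 0.0823, and 0.0215 without SOR replicate 3). It was 1 of 2 members of the 22 glycolysis genes higher at an unadjusted p under 0.05. Among 19 genes of lipid droplets and triglyceride turnover, Plin4 was called and 4 were higher and 1 lower at that p, while the droplet coat gene Plin2 had a log2 fold change of 0.30 (SE 0.145) and overlapping groups. The clock gene Per2, also a glucocorticoid target, was at 36.5, 41.6, 34.5 and 28.5 CPM after SOR, against 23.6, 25.3, 22.6 and 22.98 CPM in homecage mice, with a log2 fold change of 0.60 (SE 0.12, edgeR adjusted p = 0.238). Of 21 clock genes 4 were higher and 0 lower at that p, and the clock genes Dbp and Nr1d1 had overlapping groups.

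Small shifts in 1 direction ran through lists in which no or few genes passed. All 38 nuclear genes of oxidative phosphorylation, 71 of 73 cytosolic ribosomal protein genes and all 31 proteasome genes had a log2 fold change above 0, with medians of 0.132, 0.168 and 0.142. Of all protein-coding genes 8922 of 15372 were above 0, and such counts depend on the scaling. None of the genes in these 3 lists had an unadjusted p under 0.05 by edgeR and their groups overlapped. SOR replicate 3 was the highest library for ribosomal proteins and homecage replicate 2 the lowest. Without SOR replicate 3 these medians were 0.067, 0.098 and 0.07. On the other side, 18 of 19 genes of GABA receptors and synthesis, 23 of 28 glutamate receptor genes and 31 of 36 genes of cell adhesion and axon guidance were below 0, with 0, 2 and 3 lower at that p. Their medians were -0.092, -0.048 and -0.115, and without SOR replicate 3 they were -0.016, -0.084 and -0.089.

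No gene fell at an adjusted p under 0.05 by edgeR in the 8 libraries with the filter on low counts. There were 6 lower calls by DESeq2, 9 without that filter and 14 with all 19 libraries in 1 fit. Gm48751 was called in all 3 of these, Kdr and Ttc22 in the first 2, and Zkscan2 and Fam181a with all 19 libraries. The lower genes with the smallest p whose groups did not overlap were mostly weak or noncoding transcripts. Gm48751 (ENSMUSG00000112307.1, chr10:9482929-9487202, minus strand), a TEC transcript, was at 2.496, 2.80, 2.03 and 2.86 CPM after SOR, against 5.70, 5.88, 4.23 and 4.55 CPM in homecage mice. Its log2 fold change was -0.92 (SE 0.176, edgeR adjusted p = 0.201). Gm26578, a lincRNA that lies opposite to Nrg1, had a log2 fold change of -1.63 (SE 0.332, edgeR adjusted p = 0.259) at 0.0860 to 0.236 CPM after SOR and 0.468 to 0.704 CPM in the homecage. Among the better measured genes was Kdr, which encodes the VEGF receptor of endothelial cells, at 10.8, 12.4, 13.0 and 11.04 CPM after SOR, against 17.4, 18.6, 17.98 and 14.9 CPM in homecage mice. Its log2 fold change was -0.55 (SE 0.118, edgeR adjusted p = 0.32), while the summed endothelial markers overlapped between groups at 264.0 to 311.9 CPM after SOR and 294.9 to 320.1 CPM in the homecage. Of its 10 markers Slco1a4 and Tek were lower at an unadjusted p under 0.05 with groups apart, with log2 fold changes of -0.30 and -0.24, and Ly6c1 was higher at 0.57 with overlapping groups. The zinc finger gene Zkscan2 had a log2 fold change of -0.47 (SE 0.114, edgeR adjusted p = 0.457). The remaining 6 were Ttc22, Fat2, Fam181a, BC018473, Gm42837 and Gm38451, each under 2.5 CPM in every library, with log2 fold changes from -1.50 to -0.90. Cilium and flagellum genes had 4 of 28 members lower at an unadjusted p under 0.05 and 0 higher, with a median of -0.167. The groups did not overlap in 1 member. Without SOR replicate 3, 7 members were lower at that p, while lower genes over all also rose from 695 to 1024 of 22305.

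The lower side differed from the higher side in the kinds of genes it held. Of 1555 TEC transcripts tested, 130 were lower (8.36%) and 4 higher at an unadjusted p under 0.05, with a median log2 fold change of -0.277. Of 2760 long noncoding RNAs, 141 were lower (5.11%) and 22 higher, with a median of -0.128. Of 15372 protein-coding genes, 599 were higher (3.9%) and 357 lower (2.32%). TEC transcripts took 0.322, 0.375, 0.186 and 0.314% of the counts in SOR replicates 1 to 4 and 0.426, 0.495, 0.349 and 0.343% in homecage replicates 1 to 4, so the groups overlapped and SOR replicate 3 was lowest. Without that library 156 TEC transcripts were lower and 10 higher, and 829 protein-coding genes were higher and 613 lower. Of all TEC transcripts tested 66.0% lay inside a protein-coding gene on its strand, and of the 130 lower ones 72.3% did. Protein-coding genes on the lower side were also longer, with a median span of 41.7 kb against 19.9 kb on the higher side and 24.9 kb over all tested. Without SOR replicate 3 the spans were 40.7 kb and 22.7 kb. Counts of TEC transcripts inside genes cannot be told apart from unspliced RNA of those genes, and the part of RNA quality in these differences was not tested.

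**Figure D5:**
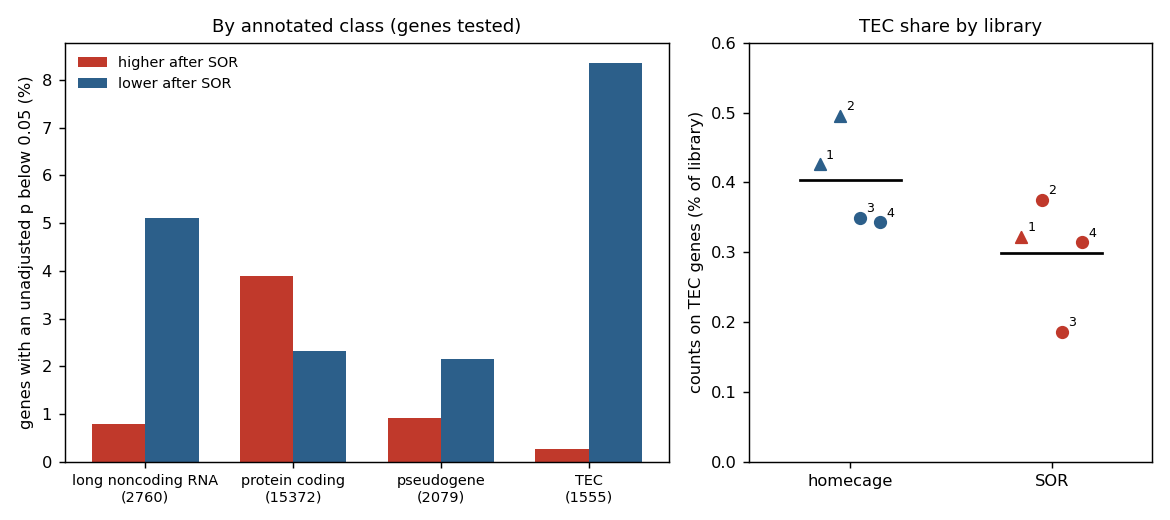
Left, percentage of tested genes of each annotated class (number tested on the x axis) with an unadjusted p under 0.05, red for higher and blue for lower after SOR. Right, share of each library's counts on TEC transcripts, with circles for tTA+ mice, triangles for tTA- mice, digits for replicate numbers and bars for group means. TEC transcripts have the largest lower share (8.36%), and SOR replicate 3 has the smallest share of counts (0.186%).

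Markers of other cells were checked beside these results. The summed levels of the markers of astrocytes, oligodendrocytes, their precursors, microglia, vessels, ependyma, blood, thalamus, striatum and neocortex overlapped between groups, and no marker was at 0 in all 8 libraries. Single markers were higher at an unadjusted p under 0.05 with no overlap between groups: 3 of 10 for astrocytes (Gjb6, Aldh1l1 and Aldoc), 2 of 10 for mature oligodendrocytes (Mobp and Mal), 1 of 8 for their precursors (Gpr17) and 1 of 10 for microglia (Tmem119). Lower at that p, with overlapping groups, were Opalin of mature oligodendrocytes (log2 fold change -0.41), Dcx of immature neurons (-0.50), Pdgfrb of mural cells (-0.37) and Enkur of ependyma (-0.50). Higher at that p, also with overlapping groups, were C1qa of microglia (0.30), Hbb-bt of blood (0.51) and Ppp1r1b of striatum (0.39). So were Vip of interneurons (0.40) and Amigo2 of CA2 or CA3 (0.35). None of these markers was called by edgeR in the 8 libraries, while Gjb6 was called without SOR replicate 3 (adjusted p = 0.0353) and with all 19 libraries (adjusted p = 0.00115). The part of these cells in the raised lists was not tested. Choroid plexus, the tissue that secretes cerebrospinal fluid beside the hippocampus, was the exception in its spread. Its 10 markers summed to 1014.0, 2235.0, 23.9 and 61.9 CPM in SOR replicates 1 to 4 and to 73.9, 185.4, 83.5 and 49.2 CPM in homecage replicates 1 to 4. SOR replicates 1 and 2 were far above all other libraries, and SOR replicate 3 was the lowest of the 8. All 10 markers had a log2 fold change above 0 (median 2.19), 6 at an unadjusted p under 0.05, but in none were the groups apart. When SOR replicate 3 was left out, 3 markers were higher at that p and the median was 2.47. Ttr, the transthyretin gene that dominates choroid plexus RNA, was at 912.4, 2010, 9.46 and 34.5 CPM after SOR, against 34.5, 130.5, 49.7 and 25.2 CPM in homecage mice. The water channel gene Aqp1 was at 6.57, 16.3, 0.379 and 0.515 CPM after SOR, against 0.335, 0.956, 0.425 and 0.424 CPM in homecage mice. The level of the ER chaperone list was 0.171, 0.104, 0.323 and 0.113 in SOR replicates 1 to 4, and that of the glucocorticoid list 0.471, 0.322, 0.285 and 0.165. The part of choroid plexus RNA in these differences was not tested.

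The response was also compared between genotypes. The interaction of exposure and tTA was past an adjusted p of 0.05 in 0 of 22305 genes by edgeR, with 464 at an unadjusted p under 0.05, and it rests on a single tTA- library after SOR. Among tTA+ mice alone, 3 libraries against 2, no gene was called by edgeR. At an unadjusted p under 0.05, 178 were higher and 169 lower, with all 11 genes among the higher. These libraries were part of those in which the 11 were chosen. The 6 control libraries of the first experiment, also from tTA+ mice after SOR, were set beside these levels as values only, since experiment and exposure cannot be told apart against the homecage group. On a common scale of CPM, all 6 lay above every homecage library in 10 of the 11 genes, and in 5 of 6 libraries for Smim3. The 11 genes were chosen for lying low in these same homecage libraries, which favours such counts. The share over all genes was not counted, so these counts are not independent evidence. The mean of the 6 was nearer to the SOR mean of the second experiment in 7 of the 11 genes. It was nearer to the homecage mean in Xdh, Adipor2, Tsc22d3 and Smim3. Tsc22d3 was there at 77.2 to 104.3 CPM with a mean of 89.8 CPM, against means in the second experiment of 140.8 CPM (SOR) and 68.6 CPM (homecage). Plin4 was there at 12.3 to 26.5 CPM, Xbp1 at 96.8 to 142.7 CPM and Manf at 41.6 to 72.8 CPM. Arc had the widest range of the 11, from 88.2 to 294.8 CPM.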

How the data were processed

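Total RNA of flash frozen dorsal hippocampus, extracted with Trizol, was sequenced as 19 libraries after removal of ribosomal RNA with a TruSeq Ribo-Zero gold kit, per the labels' protocols. The authors deposited 1 table of whole-number counts for 51789 genes. Per the submitters' processing notes, the tools were STAR, SAMtools 1.6 and featureCounts 1.4.4 and the build was mm10. The settings, the annotation release and the use of strand are not given in the sources used here, so overlapping, antisense and near-identical genes are uncertain. Columns were matched to samples by the sample names in the labels. Symbols, classes and positions came from GENCODE M21 on GRCm38, which held 51596 of the identifiers.

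The 8 libraries of the second experiment were fitted with edgeR 4.0.16 in R 4.3.3: filterByExpr on the 2 exposure groups (minimum count 10, total 15), TMM scaling, tTA genotype and exposure in the model, the robust quasi-likelihood F test (two-sided) and Benjamini-Hochberg adjustment over 22305 genes. Genes were called at an adjusted p under 0.05. Standard errors are the absolute log2 fold change over the square root of F. CPM values are scaled by TMM, log2 CPM used a prior count of 2, and a list's level is the mean of its members' centred log2 CPM. The biological coefficient of variation was 0.165. Totals of 22258159 to 66991576 counts limit the precision of genes near 1 CPM most. Replicates differed by more than counting noise, with a chi-square per degree of freedom of 4.77 to 73.4 over genes with at least 20 counts, so none was counted as a repeat. The fitting code was tested on simulated data with known answers.

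The comparison, the gene lists and the named genes were chosen with earlier results of these data known, so they support nothing by their choice. Genes were named by rule: Nr4a1, Nr4a2, Nr4a3, Hspa5 and Xbp1, the called genes, the lower genes of smallest p without overlap between groups, and up to 4 members of smallest p and the most abundant member of each list. Other genes are named as examples, chosen after their values were seen. Promoter sequences are RefSeq's on GRCm38.p6, matched by symbol. Of the 11 called genes 6 had one. Alternatives were another threshold, no tTA term, RLE and upper quartile scaling, other filters, DESeq2 1.42.0, limma-voom (limma 3.58.1), all 19 libraries in 1 fit, tTA+ mice alone, a replicate block with and without tTA, and each library left out.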

Additional observations from a re-analysis of the deposited data

Results flagged for a closer look

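Of 84 groups of 4 values checked, 8 had 1 library set apart from the other 3 by most of the group's range (beyond Dixon's critical value), and chance gives about 1 in 20 groups. The total of SOR replicate 3, at 22258159 counts, was below the 46773428 to 48377211 of the other SOR libraries. Homecage replicate 2 was lowest for Manf (32.5 CPM against 37.0 to 37.1), P4ha1 (76.9 CPM against 86.1 to 87.1) and Slc2a1 (42.6 CPM against 45.4 to 45.8). Homecage replicate 3 was lowest for Nr4a1 (15.4 CPM against 19.04 to 19.8) and Dusp5 (8.79 CPM against 12.6 to 13.1). SOR replicate 1 was lowest for Hspa1b (15.9 CPM against 18.9 to 19.6). SOR replicate 2 was highest for Nr4a3 (50.2 CPM against 39.1 to 40.6).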

How the results depend on the processing

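The count of called genes depended on the processing, while all 11 called genes stayed higher with an unadjusted p under 0.05 in each of the 20 alternatives run. Each alternative reused all or part of the libraries in which the 11 were chosen, so this is not independent evidence. The highest adjusted p over the alternatives was 0.102 for Plin4 and 0.997 for each of the other called genes. Against 11 higher and 0 lower calls, an adjusted p under 0.1 gave 20, no tTA term 20, upper quartile scaling 7, no filter 73 higher and 9 lower, DESeq2 81 higher and 6 lower, all 19 libraries in 1 fit 86 higher and 14 lower, and tTA+ mice alone 0. RLE factors gave 11, limma-voom 12, at least 10 counts in every library 10, and a filter on the design with tTA, chosen after seeing the data, 11. Leaving out each library gave 1 to 32 calls, and none was lower. A replicate block without tTA gave 9 calls and one with tTA gave 1, Plin4. The deviations of same-numbered libraries correlated at 0.134, 0.559, 0.0487 and 0.297, above 0.1 in 3 of 4 pairs, and pair 2 alone correlated best with its own number. The labels give the numbers no shared batch or litter and 1 pair was not above 0.1, so the numbers were not taken to pair the libraries. The cause of these differences was not tested.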

Other observations

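Without SOR replicate 3, which stood apart from the other libraries, 32 genes were called by edgeR, all higher. Of these 5 were in the ER chaperone list and 6 in the glucocorticoid list. With all 19 libraries in 1 fit, 9 of the 25 ER chaperones and 14 of the 25 glucocorticoid-induced genes were called, against 1 and 2 in the 8 libraries. That fit called more genes of every kind, 86 higher and 14 lower of 23716 tested. It kept 9 of the 11 genes called in the 8 libraries, and Arc and Hspa1b were not called.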
